A study of Bos taurus with 34 samples.

Results

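ARG2 (ENSBTAG00000001945), MGAM (ENSBTAG00000046152) and GPAT3 (ENSBTAG00000017592) are 3 of the 27570 genes in the count table of bovine peripheral white blood cells (PWBCs). They were chosen by their measured levels: each had been seen to be higher in heifers that did not become pregnant than in heifers that did. Their levels by group are therefore given as a description, with no test. All 3 genes passed the filter on low counts, which kept 10942 genes with at least 2 CPM (counts scaled to the total of the library) in at least 5 libraries.

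The heifers were Angus-Simmental crossbreds of 1 herd, and all received estrous synchronization and fixed-time artificial insemination (AI) with semen of the same sire before they were exposed to bulls. Blood was drawn immediately after insemination, so the groups name a later outcome and not the state of the animal at sampling. Of the 17 heifers, 6 conceived by AI (AI-preg), 6 conceived later by a bull (natural breeding, NB-preg) and 5 stayed non-pregnant. Each heifer had 1 PWBC library from the buffy coat after lysis of red cells, and 1 plasma small RNA library. Each library is 1 animal, and heifers are named here by their number in the labels.

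ARG2 is the mitochondrial arginase, which splits arginine into ornithine and urea. MGAM, maltase-glucoamylase, releases glucose from the ends of starch-derived oligosaccharides; it is best known from the intestinal brush border and is also found in granulocytes. GPAT3 is a glycerol-3-phosphate acyltransferase of the endoplasmic reticulum, and catalyzes the first step in the synthesis of glycerolipids, including triglycerides.

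The PWBC library totals ran from 15353819 to 67192941 read pairs in AI-preg, from 6402207 to 56867279 in NB-preg and from 4184999 to 20164587 in non-pregnant heifers, so the non-pregnant libraries were on the whole shallower. PTPRC (CD45), the antigen shared by leukocytes, was read in every library, at 125 to 3225 CPM. Across all 10942 genes, the first and second principal components of log2(CPM + 1) held 45.4% and 25.4% of the variance. The labels give no batch, date or lane, so no within-batch value could be computed.

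ARG2 was high in 4 of the 5 non-pregnant heifers. Its level was 56.8 CPM in heifer 94, 2.64 CPM in heifer 101, 88.3 CPM in heifer 107, 56.0 CPM in heifer 113 and 70.3 CPM in heifer 115. In the 6 AI-preg heifers the lowest, median and highest levels were 4.04, 6.93 and 28.1 CPM, and in the 6 NB-preg heifers 1.73, 7.25 and 33.2 CPM. The groups overlapped through a single non-pregnant animal: 4 non-pregnant heifers lay above all 12 pregnant heifers, while heifer 101 lay below 11 of the 12. The highest pregnant heifers were 114 (AI-preg) and 116 (NB-preg), and no other pregnant heifer exceeded 10.4 CPM.

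MGAM was at 42.0 CPM in non-pregnant heifer 94, 3.60 in 101, 34.2 in 107, 17.4 in 113 and 37.5 in 115. The lowest, median and highest levels were 0.435, 1.56 and 12.5 CPM in AI-preg and 1.22, 3.81 and 19.5 CPM in NB-preg. The same heifers stood out, with 114 and 116 the highest of the pregnant animals; 116 exceeded non-pregnant heifer 113 as well as 101. Without 114 and 116, the highest pregnant level was 5.88 CPM.

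GPAT3 was at 65.3 CPM in non-pregnant heifer 94, 5.99 in 101, 78.4 in 107, 43.4 in 113 and 51.5 in 115. The lowest, median and highest levels were 2.41, 7.32 and 16.9 CPM in AI-preg and 4.13, 12.04 and 47.9 CPM in NB-preg. Here 1 pregnant heifer, 116, exceeded the lowest of the 4 high non-pregnant animals, and 9 of the 12 pregnant heifers exceeded heifer 101. The next highest pregnant animal after 116 was NB-preg heifer 103, at 24.8 CPM.

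**Figure D1:**
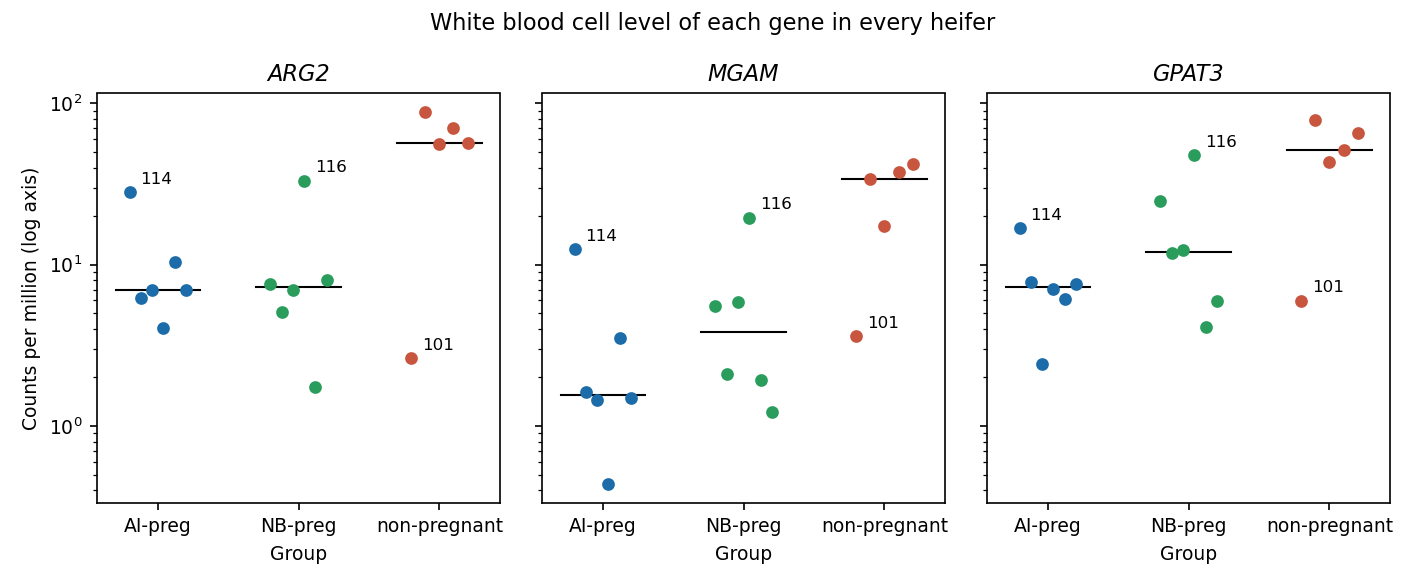
CPM on a log axis of ARG2, MGAM and GPAT3 in each PWBC library (1 point per heifer), by group, with a line at the group median. Non-pregnant heifer 101 lies among the pregnant heifers for all 3 genes, and AI-preg heifer 114 and NB-preg heifer 116 lie above the rest of their groups.

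The low values of heifer 101 rest on few read pairs. Its library, the shallowest of the PWBC libraries, held 11 read pairs of ARG2, 15 of MGAM and 25 of GPAT3. The exact 95% binomial intervals, which cover counting error only, were 1.32 to 4.72 CPM for ARG2, 2.01 to 5.93 for MGAM and 3.88 to 8.85 for GPAT3. These upper bounds lie below the level of each of the other 4 non-pregnant heifers. PTPRC was at 3225 CPM in heifer 101, against 235 to 514 CPM in the other 4 non-pregnant heifers. In the pregnant groups it ran from 340 to 3072 CPM (AI-preg) and from 125 to 2577 CPM (NB-preg), so high levels were not particular to heifer 101. The part of depth or of cell content in these values was not tested.

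In the fit across all genes (edgeR quasi-likelihood, 17 libraries, totals over the genes kept), ARG2 was 2.40 ± 0.76 (SE) log2 units higher in non-pregnant than in AI-preg heifers, MGAM 2.95 ± 0.89 and GPAT3 2.62 ± 0.68. Against NB-preg the differences were 2.40 ± 0.76, 2.17 ± 0.87 and 1.46 ± 0.66. The median of all genes was -0.15 in the comparison with AI-preg and -0.05 in that with NB-preg, so relative to it the differences were 2.55, 3.10 and 2.77 and 2.45, 2.22 and 1.51. From the highest down, the genes ranked 144 (ARG2), 51 (MGAM) and 90 (GPAT3) of 10942 against AI-preg, and 109, 181 and 755 against NB-preg. Both comparisons use the same 5 non-pregnant libraries.

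None of the 3 genes passed an adjusted p of 0.05 (Benjamini-Hochberg over 10942 genes) by the edgeR quasi-likelihood test in either comparison, where the background was 0 genes called, 0% of those tested; the likelihood ratio test and TMM factors also called 0. At an unadjusted p under 0.05 the test held 585 genes against AI-preg and 672 against NB-preg. DESeq2 called 5 genes (0.0457%) against AI-preg, 1 of them GPAT3, and 11 genes (0.101%) against NB-preg, none of them among the 3. Since the genes were chosen on these contrasts, nothing is read from these counts.

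Between the pregnant groups, NB-preg minus AI-preg was -0.01 ± 0.71 for ARG2, 0.78 ± 0.82 for MGAM and 1.16 ± 0.64 for GPAT3, and ARG2 turned to 0.10 with TMM factors and 0.13 with DESeq2. From the highest down, ARG2 ranked 4541, MGAM 437 and GPAT3 147 of 10942 genes. The values shifted with single animals. Leaving out heifer 116 gave -0.82, -0.07 and 0.56, and leaving out heifer 114 gave 0.58, 1.81 and 1.52. In this comparison too 0 genes of 10942 passed by any of the tools (0% called), with 16 genes at an unadjusted p under 0.05 by the edgeR test.

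With 1 heifer left out in turn, the differences from the non-pregnant group also shifted in size, but all stayed positive. Without heifer 101 the non-pregnant minus AI-preg differences were 2.70, 3.23 and 2.90 for ARG2, MGAM and GPAT3. Without heifer 114 they were 2.99, 3.98 and 2.98. Without heifer 116 the differences from NB-preg were 3.22, 3.02 and 2.06. Other omissions made the differences smaller. The lowest against AI-preg were 2.16 for ARG2 and 2.39 for GPAT3 without heifer 107, and 2.71 for MGAM without heifer 120. Against NB-preg the lowest were 2.17 for ARG2 and 1.23 for GPAT3 without heifer 107, and 1.95 for MGAM without heifer 94.

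The next comparison asked whether the genes moved together among heifers of the same outcome. Group means were subtracted from log2(CPM + 1), since they had been used to choose the genes, and the significance was taken from 100000 two-sided permutations of heifers within groups. The deviations of ARG2 and MGAM had a Pearson's r of 0.88 (Spearman's rho 0.88, adjusted permutation p = 0.00042 for r and 0.00048 for rho over 3 pairs). For ARG2 and GPAT3, r was 0.87 (rho 0.79, adjusted permutation p = 0.00081 and 0.00249), and for MGAM and GPAT3 it was 0.86 (rho 0.81, adjusted permutation p = 0.00042 and 0.0016). Without the 2 heifers farthest from the median of the first gene, r was 0.87, 0.86 and 0.85. The heifers left out were 107 and 115 for ARG2, and 94 and 115 for MGAM. They were picked by level with group differences left in, so heifers 101, 114 and 116 stayed in. The deviation from the group mean was largest in heifer 101 for each gene, so these values do not test the heifers with the largest deviations.

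These relations were weaker without heifers 101, 114 and 116 together. In heifer 101 the deviations from the group mean were -3.37, -2.25 and -2.46 log2 units for ARG2, MGAM and GPAT3, while in heifers 114 and 116 they were 1.16 to 2.02. With these 3 heifers left out, a choice made after their values were seen, r was 0.50 for ARG2 with MGAM, 0.42 for ARG2 with GPAT3 and 0.51 for MGAM with GPAT3, and none passed (adjusted permutation p = 0.186, 0.281 and 0.186, n = 14). These 3 heifers were picked for their large deviations in the same genes. Leaving them out narrows the range, which by itself lowers r, so the fall does not show what the relations rest on. Leaving out any 1 of the 17 heifers kept r between 0.77 and 0.93, and each pair passed in all 17 of these fits. In the 12 pregnant heifers r was 0.87, 0.77 and 0.79 (adjusted permutation p = 0.00513, 0.00928 and 0.00819).

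**Figure D2:**
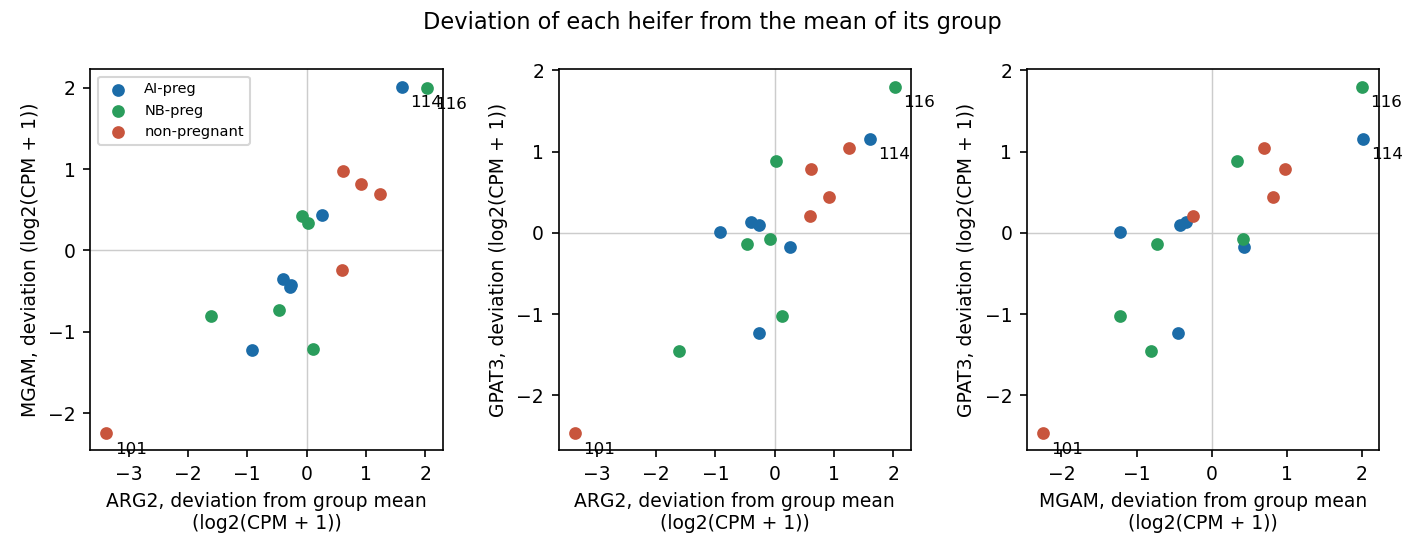
Deviation of each heifer from the mean of its group in log2(CPM + 1), for the 3 pairs of genes (1 point per heifer, colored by group). Heifers 101, 114 and 116 lie at the ends of the diagonal, and the other 14 heifers give r between 0.42 and 0.51.

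Across all 17 heifers, group differences included, r was 0.90 for ARG2 with MGAM, 0.88 for ARG2 with GPAT3 and 0.92 for MGAM with GPAT3, as a description. The median r of all other genes was -0.19 with ARG2, -0.21 with MGAM and -0.18 with GPAT3. MGAM was the fifth most similar gene to GPAT3 among 10941 others, whereas MGAM held rank 22 in the list of ARG2 and ARG2 rank 34 in that of MGAM. There were 22 genes with r over 0.9 with ARG2, 36 with MGAM and 12 with GPAT3.

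The lists of the 5 most similar genes held 11 different genes, of which 1 stood in all 3 lists and 2 stood in 2 lists. CDA, the cytidine deaminase of pyrimidine salvage, was the gene in all 3 lists (r = 0.95, 0.94 and 0.92 over 17 heifers). RGS2, a regulator of G-protein signaling, was most like ARG2 (r = 0.96), followed by CDA, C5AR1, the receptor of complement fragment C5a (0.94), MCTP2 (0.93) and ENSBTAG00000052364 (0.93). For MGAM they were ENSBTAG00000046090 (0.96), IL1RN, the antagonist of the interleukin 1 receptor (0.95), CDA, VNN2, a vanin family protein (0.94), and ENSBTAG00000021176 (0.94). For GPAT3 they were ENSBTAG00000000377 (0.93), ENSBTAG00000052364 (0.92), VNN2 (0.92), CDA and MGAM.

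The most similar and most opposite genes were picked by r over these same 17 libraries. Their levels in single animals follow from that choice and are given as a description. RGS2 was at 13.9 CPM in heifer 101, 122.6 in 114 and 166 in 116, against medians of 15.3 CPM in AI-preg, 23.5 in NB-preg and 179 in non-pregnant heifers. IL1RN was at 37.4, 188 and 197 CPM in the same 3 animals, against medians of 29.7, 37.6 and 287. C5AR1 reached its highest level of all 17 libraries, 81.6 CPM, in pregnant heifer 116. Symbols were known only for genes in the supplementary tables of the study, which include its lists of genes that differed by pregnancy outcome in these libraries, so the named neighbors are no independent evidence of direction.

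In the opposite direction, the 2 lowest genes were ENSBTAG00000007606 (r = -0.92) and ENSBTAG00000009278 (-0.91) for ARG2, ENSBTAG00000042100 (-0.92) and ENSBTAG00000016368 (-0.91) for MGAM, and ENSBTAG00000011839 (-0.93) and PRPF38B, a pre-mRNA splicing factor (-0.91), for GPAT3. PRPF38B was at 403 CPM in heifer 101, against a median of 187 CPM in its group, 379 in AI-preg and 304 in NB-preg.

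**Figure D3:**
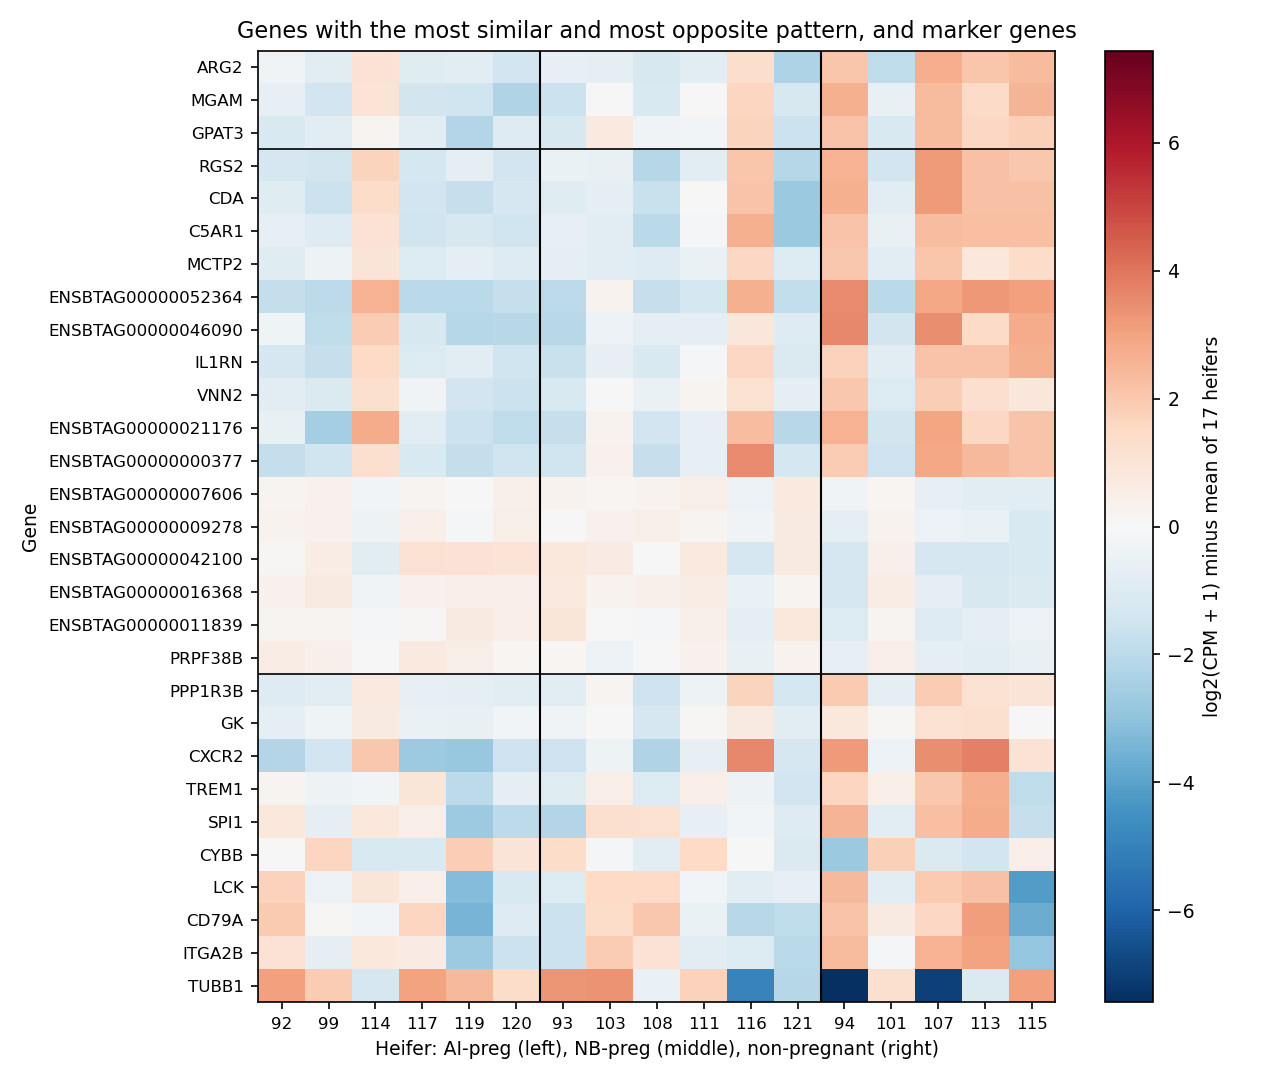
log2(CPM + 1) minus the mean of 17 heifers, by heifer (columns, in groups) and gene (rows), for ARG2, MGAM and GPAT3 on top, then their most similar and most opposite genes, then genes of their pathways and cell markers. Heifers 114 and 116 share the high block of the non-pregnant heifers in the upper rows and heifer 101 does not, whereas in heifer 115 LCK, CD79A and ITGA2B are low and TUBB1 is high.

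Of the other genes of these pathways, few could be placed. Lists of arginine and polyamine metabolism, glycerolipid synthesis, and starch, glycogen and glucose handling held 112 genes, of which 12 had an identifier in the tables used and all 12 were tested. Against AI-preg, 0 of the 12 passed an adjusted p of 0.05 by the edgeR quasi-likelihood test, where 0% of all genes were called. At an unadjusted p under 0.05, 4 of the 12 were higher in non-pregnant heifers, where 2.6% of all genes were, and 0 were lower, against 2.75% of all genes. Against NB-preg 0 passed, 2 were higher (2.81% of all genes) and 0 lower (3.33%) at that unadjusted limit, and between the pregnant groups 0 were higher (0.128% of all genes) or lower (0.0183%). DESeq2 gave 7 and 6 of the 12 at an unadjusted p under 0.05 in the comparisons with AI-preg and NB-preg, where it gave 10.6% and 10.3% of all genes, and 0 passed adjustment by any tool. The median log2 difference of the 12 was 1.203 against AI-preg and 0.94 against NB-preg, where the medians of all genes were -0.15 and -0.05. The 12 could be named only through tables that include the study's own lists of genes differing by outcome in these libraries, so neither their counts nor their median is independent of the comparison, and nothing is read from setting them against all genes.

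PPP1R3B, a glycogen-targeting subunit of protein phosphatase 1, was the pathway gene nearest to the 3 in pattern, with r of 0.91, 0.92 and 0.90 over 17 heifers. It was at 115 CPM in non-pregnant heifer 94, 18.5 in 101, 110 in 107, 66.9 in 113 and 57.0 in 115, and at 49.8 in AI-preg heifer 114 and 94.6 in NB-preg heifer 116. Its difference was 1.71 ± 0.60 (SE) against AI-preg (edgeR unadjusted p = 0.00937, adjusted p = 0.78) and 1.23 ± 0.59 against NB-preg (adjusted p = 0.778). GK, glycerol kinase, which makes the glycerol-3-phosphate that GPAT3 uses, had r of 0.77, 0.76 and 0.76 and differences of 0.94 ± 0.43 and 0.90 ± 0.43 (edgeR adjusted p = 0.78 and 0.778).

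The remaining pathway genes had r between -0.63 and 0.63 with the 3 genes. G6PC3, a ubiquitous glucose-6-phosphatase, differed by 2.63 ± 1.16 from AI-preg (edgeR adjusted p = 0.78) with r of 0.41 with ARG2, and in heifer 115, where ARG2 was at 70.3 CPM, it was at 0.123 CPM. AGPAT1, which acts in the step after GPAT3, differed by 2.05 ± 0.87 (adjusted p = 0.78), with r of 0.41 with GPAT3. HK3, a hexokinase, differed by 1.88 ± 1.02, PNPLA2, the adipose triglyceride lipase, by 1.39 ± 0.94, SLC7A7, a transporter of arginine, by 1.02 ± 0.60 and GBE1, the glycogen branching enzyme, by -0.22 ± 0.39 in the same comparison. ACSL3, a long-chain acyl-CoA synthetase, ran the other way, with differences of -0.50 ± 0.51 from AI-preg and -0.73 ± 0.51 from NB-preg and r of -0.59 with ARG2 and -0.63 with GPAT3. FITM1, which acts in lipid droplet formation, differed by -0.64 ± 0.73 from AI-preg, with r of -0.57 with GPAT3. Of 10 further genes of sugar and lipid metabolism, added because their identifiers were known, 0 passed adjustment by the edgeR test in either comparison, with 3 higher at an unadjusted p under 0.05 against AI-preg and 2 against NB-preg, where 2.6% and 2.81% of all genes were. These 10 came from the same tables and carry the same limit.

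Because PWBCs are a mixture, markers of cell types were set beside the 3 genes. In bulk RNA, more cells of a type cannot be told apart from more RNA per cell. Of 12 neutrophil markers 2 could be identified, CXCR2, a chemokine receptor, and TREM1, a myeloid activating receptor. All markers were named through the same tables as the pathway genes, so their differences by outcome are not independent of the comparison. CXCR2 was at 65.1 CPM in non-pregnant heifer 94, 4.56 in 101, 80.3 in 107, 100 in 113 and 14.9 in 115, with lowest, median and highest levels of 0.0402, 1.10 and 29.0 CPM in AI-preg and 0.557, 2.99 and 85.9 CPM in NB-preg. The highest AI-preg and NB-preg levels were again those of heifers 114 and 116. TREM1 did not single out these animals: it was at 7.57 CPM in 114 and 6.57 in 116, and at 12.9 CPM in heifer 101.

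Each marker alone was added as a measure after the values were seen. Within groups, the CXCR2 level had r of 0.77 with ARG2, 0.80 with MGAM and 0.79 with GPAT3 (rho 0.73, 0.68 and 0.81; adjusted permutation p for r = 0.0199, 0.0199 and 0.017 over 30 relations with 10 measures; for rho 0.0273, 0.0362 and 0.00915). Without the 2 heifers farthest in each gene, r was 0.84, 0.88 and 0.77. This choice, again by level with group differences left in, kept heifers 101, 114 and 116, so it does not test their part. The 2 heifers left out were 107 and 115 for ARG2, 94 and 115 for MGAM, and 107 and 94 for GPAT3. The mean of CXCR2 and TREM1 had r of 0.64, 0.66 and 0.74 (rho 0.65, 0.65 and 0.77; adjusted permutation p for r = 0.0448, 0.0448 and 0.017; for rho 0.0346, 0.0381 and 0.0075), and r of 0.85, 0.88 and 0.70 without those 2 heifers. These 6 of the 30 relations passed. With 1 of the 17 heifers left out in turn, the relations of ARG2 and MGAM with the mean of both markers passed in 3 and 4 of 17 fits, so these calls lie at the threshold, and that of GPAT3 passed in 15. The relations with CXCR2 passed in 14, 14 and 15 of 17. TREM1 alone had r of 0.18, 0.17 and 0.35 (adjusted permutation p = 0.786, 0.786 and 0.616).

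The CXCR2 relation, too, was weaker without the heifers that stood apart. Without heifers 101, 114 and 116 its r was 0.01, 0.05 and 0.37, and 0 of the 30 relations passed. Here too the choice of these heifers narrows the range and by itself lowers r. Without heifer 114 alone, and without heifer 116 alone, 0 of 30 passed as well, and without heifer 101 alone 2 did, while r with CXCR2 stayed between 0.70 and 0.86 for each gene and each single heifer left out.

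The other measures given here had no relation that passed. The scores of platelet markers (ITGA2B, TUBB1), phagocyte genes (SPI1, CYBA, CYBB, FCER1G, CSF2RA) and T and NK cell genes (LCK, GATA3, CXCR3, CCR4, NKG7) had within-group r from -0.37 to 0.41 with the 3 genes, with adjusted permutation p of 0.485 or more. These scores are means over genes that did not all run the same way. Within groups, r with GPAT3 was 0.42 for ITGA2B and -0.48 for TUBB1. It was 0.55 for SPI1, 0.47 for CYBA, 0.49 for FCER1G and 0.14 for CSF2RA, but -0.51 for CYBB. A low r of a score therefore does not speak for its single genes. The log2 library total had within-group r of -0.03, -0.31 and -0.13 with ARG2, MGAM and GPAT3, and of -0.35, -0.60 and -0.48 when the groups were not removed. The within-group values depended on single libraries: they were -0.50, -0.66 and -0.52 without heifer 101 and 0.23, -0.10 and 0.12 without heifer 116, and -0.49, -0.67 and -0.52 in the 12 pregnant heifers (adjusted permutation p = 0.381, 0.11 and 0.381). The first principal component had within-group r of 0.07, 0.08 and 0.27 (adjusted permutation p = 0.888, 0.882 and 0.735), and the second had within-group r of 0.51, 0.63 and 0.46 (adjusted permutation p = 0.271, 0.0663 and 0.341). With TMM factors the second component passed with MGAM (r = 0.73, adjusted permutation p = 0.0282). It passed with MGAM in 3 alternatives and with ARG2 and GPAT3 in 1 each, and the phagocyte score passed with GPAT3 in 1. None of the listed monocyte, eosinophil, T cell, NK cell or red cell markers could be identified, so these cells were not measured by their defining markers.

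In heifer 115 the 3 genes and most markers lay apart. ARG2, MGAM and GPAT3 were at 70.3, 37.5 and 51.5 CPM in this non-pregnant heifer, within the range of heifers 94, 107 and 113. Of 14 markers in the neutrophil, platelet, phagocyte, and T and NK cell lists, 10 were at their lowest level of the non-pregnant group in this library and 2 at their highest. TREM1 was at 1.60 CPM, SPI1, the myeloid transcription factor PU.1, at 14.5 CPM and LCK, a T cell kinase, at 3.32 CPM, where the group medians were 28.0, 238 and 288 CPM. In contrast, CYBB, the phagocyte oxidase subunit, was at 522 CPM, CCR4, a chemokine receptor of T cells, at 59.4 CPM and TUBB1, the platelet tubulin, at 1530 CPM, where the medians were 173, 11.7 and 85.0 CPM. In 3 of the 4 lists, markers lay on both sides of the group median. RGS2, CDA and IL1RN were at 156, 38.7 and 418 CPM in heifer 115.

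**Figure D4:**
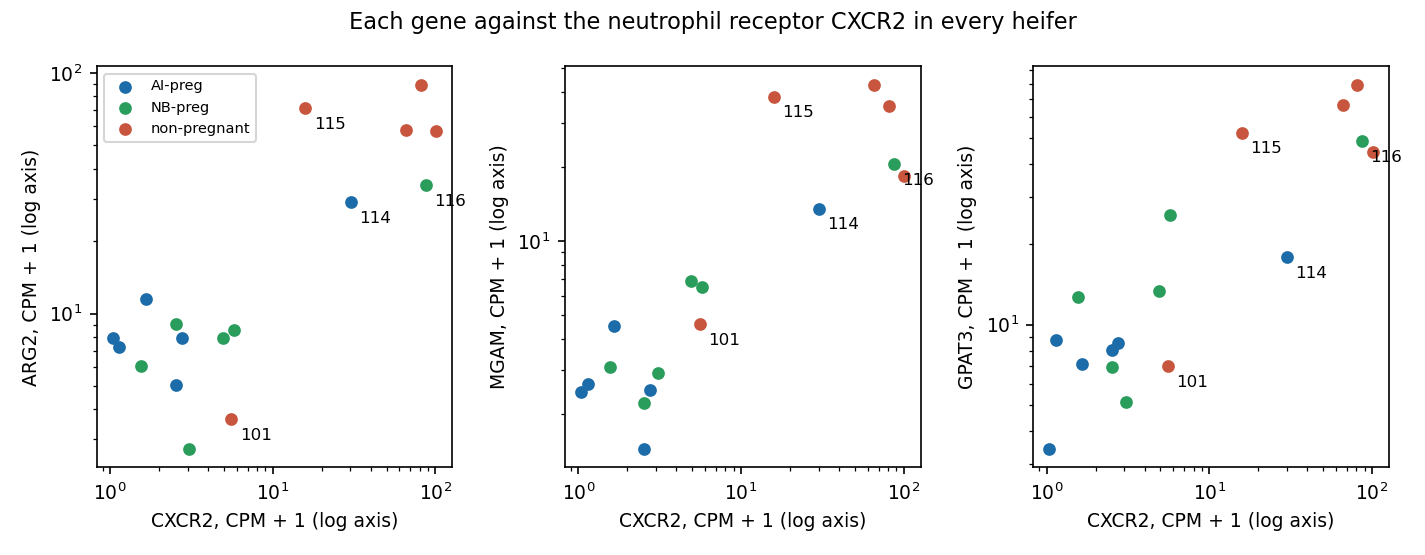
CPM + 1 of ARG2, MGAM and GPAT3 against that of CXCR2, on log axes, in 17 PWBC libraries (1 point per heifer, colored by group). Heifers 114 and 116 lie with the non-pregnant heifers at high CXCR2, and heifer 101 lies with the pregnant heifers at 4.56 CPM of CXCR2.

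With the mean of CXCR2 and TREM1 as a term in the fit, the non-pregnant minus AI-preg differences were 1.31 ± 0.72 for ARG2, 1.95 ± 0.77 for MGAM and 1.37 ± 0.61 for GPAT3. With CXCR2 alone, a term added after its values were seen, they were 0.66 ± 0.77, 1.27 ± 0.81 and 0.92 ± 0.71. Against NB-preg the differences were 1.71 ± 0.68, 1.56 ± 0.73 and 0.62 ± 0.57 with the mean of both markers, and 1.35 ± 0.68, 1.13 ± 0.72 and 0.40 ± 0.61 with CXCR2 alone. All 12 values kept their sign and were smaller than without the term. CXCR2 itself was 3.27 ± 1.43 log2 units higher in non-pregnant than in AI-preg heifers (edgeR unadjusted p = 0.0327, adjusted p = 0.78) and 1.70 ± 1.36 higher than in NB-preg (adjusted p = 0.808). The limit from how the markers were named holds for this difference and for the fits with a marker term. With the mean of both markers removed within groups, the 3 genes had r of 0.80, 0.77 and 0.73 with each other (adjusted permutation p = 0.00885, 0.0172 and 0.0172). TREM1 had lower within-group r with the 3 genes than CXCR2, and no such value is given with CXCR2 alone removed.

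**Figure D5:**
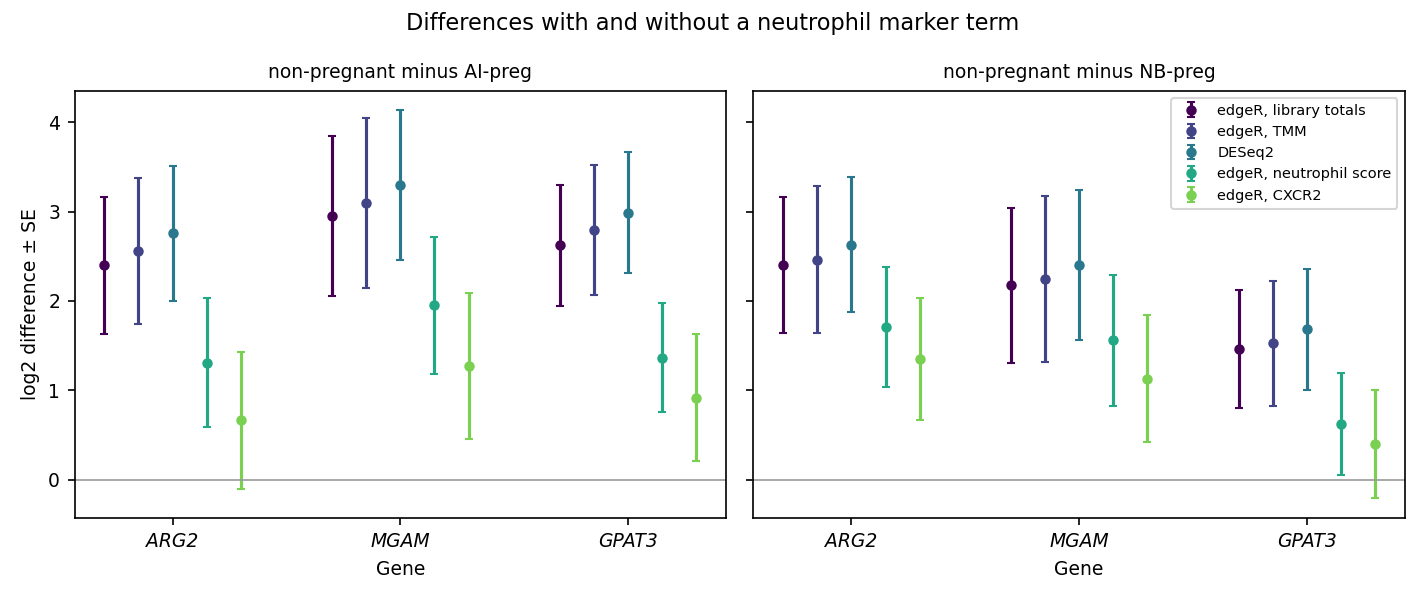
log2 differences of ARG2, MGAM and GPAT3 between non-pregnant and AI-preg heifers (left) and between non-pregnant and NB-preg heifers (right), with bars of 1 SE, in the fit on library totals, with TMM factors, with DESeq2, and with a neutrophil marker term. The differences are smallest with CXCR2 alone as the term, from 0.40 to 1.35.

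The study also asked whether pairs of genes changed their coexpression with pregnancy outcome. Pairs gained in non-pregnant heifers were counted here with its limits on r, but on log2(CPM + 1) over all genes kept; the study used RPKM values of protein-coding genes and also counted lost and inverted pairs, which were not computed here. A pair counts where the absolute r exceeds 0.99 among the heifers that did not conceive while staying below 0.1 in AI-preg and in NB-preg. ARG2 and GPAT3 had 0 such partners and MGAM had 1, against a median of 0 and a highest number of 49 over all genes, of which 17.7% had at least 1. The partner of MGAM was ENSBTAG00000002154, whose r with MGAM was -0.9995 over the 5 non-pregnant animals. It was -0.05 in AI-preg and -0.04 in NB-preg. ENSBTAG00000002154 was read by 0 pairs in heifer 94, 28 in 101, 2 in 107, 22 in 113 and 1 in 115, so the relation in the non-pregnant group rests on 3 heifers near 0 and 2 above. It remained at -0.998 in the 4 heifers without 101. With this few animals and reads the value is a description.

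Plasma small RNA, a measurement not used to choose the genes, held almost no reads of them. Plasma library totals ran from 1073910 to 17024777 reads. ARG2 had 3 reads in 2 of 17 libraries, MGAM 24 reads in 7 libraries with at most 8 in any, and GPAT3 9 reads in 3 libraries with at most 6. None reached the filter of over 1 CPM in at least 5 libraries, so no test between groups was made. MGAM reads were 7 in AI-preg, 10 in NB-preg and 7 in non-pregnant heifers, too few to compare. The plasma libraries were prepared and cut by size for small RNA, so they do not measure the mRNA level of these genes at any depth.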

How the data were processed

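Per the labels and the methods of the study, the authors aligned reads to ARS-UCD 1.2 with HISAT2 2.1.0, removed reads with several alignments or at least 5 mismatches, ignored duplicates, and deposited raw counts per Ensembl gene from featureCounts 1.6.0 (read pairs by strand for PWBCs, single reads for plasma). They left out 1 shallow non-pregnant PWBC library. Counts were tested with edgeR 4.0.16 (quasi-likelihood, totals over genes kept, no scaling factors) in 1 fit of 17 libraries. Alternatives used TMM factors, the likelihood ratio test, DESeq2 1.42.0, no filter, marker terms and single heifers left out. A pseudocount of 1 CPM was used on the log2 scale. SE was derived from the F statistic. The 30 within-group relations exceed the number first planned, because gene lists and technical measures were added. Of the 10 measures, 1 marker score is not reported here. Genes were named by rule: the 3 genes, the 5 most and 2 least similar genes of each, the coexpression partner, and fixed pathway and marker genes. Symbols came from supplementary tables and matched 2309 of the genes kept. The 3 genes and lists were chosen with earlier results of these data known. In simulated counts for these libraries, the edgeR step was checked for recovery of known changes. The edgeR and DESeq2 p-values set group differences against the spread between animals. The permutation p-values give how often shuffling heifers within groups gave an r at least as large.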

Additional observations from a re-analysis of the deposited data

Results flagged for a closer look

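Non-pregnant heifer 101 lay far below the other 4 animals of its group in 2 of the 9 combinations of gene and group examined. Its ARG2 level was 1.86 on the log2(CPM + 1) scale, and its gap to the nearest animal took 0.86 of the range of the group (Dixon's 95% critical value 0.71). Its GPAT3 level was 2.81, with a gap of 0.761 of the range. Chance marks about 1 in 20 groups, and the 3 genes are not independent of each other. The same library was the shallowest of the 17 PWBC libraries. It also had the highest PTPRC level, 3225 CPM, where AI-preg heifer 99 had 3072 CPM. The part of depth or of PTPRC was not tested.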

How the results depend on the processing

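Of 1068 values under an alternative, 978 counted as unchanged, 35 moved, 49 no longer passed, 6 newly passed and 0 of the tested or called values reversed. The NB-preg minus AI-preg differences all counted as unchanged, though the sign turned for ARG2 without heifer 114 (0.58) and for MGAM without heifer 116 (-0.07). The non-pregnant minus AI-preg difference moved to 1.37 for GPAT3 with the mean of CXCR2 and TREM1 as a term, and to 0.66 for ARG2, 1.27 for MGAM and 0.92 for GPAT3 with CXCR2 alone (added after seeing the data). Without heifers 101, 114 and 116 (also added then), within-group r was 0.50 for ARG2 with MGAM, 0.42 for ARG2 with GPAT3 and 0.51 for MGAM with GPAT3, and 0 relations with other measures passed. Leaving out 1 heifer in turn, that number ran from 0 to 9, against 6 in all heifers. With a pseudocount of 0.1, ARG2 and MGAM no longer passed with the mean of CXCR2 and TREM1. Coexpression partners numbered 2 for MGAM at an absolute r over 0.95, and 2 for ARG2 and 4 for MGAM with Spearman's rho; the cause was not tested. Scaling moved the median of all genes against AI-preg from -0.15 to -0.02 with TMM factors and 0.16 with DESeq2. The number of genes at an unadjusted p under 0.05 was 585 in the comparison with AI-preg, 1165 with DESeq2, 1696 of 19661 without the filter and 74 with the mean of both markers as a term; against NB-preg it was 672, 1124, 1772 and 137. Pathway genes at that limit fell from 4 and 2 of 12 to 0 with either marker term, and ran from 1 to 7 and from 0 to 6 with 1 heifer left out. No paired analysis was possible because a heifer's number is shared only by its own PWBC and plasma libraries and no heifer is in 2 groups. Few reads limit MGAM in the shallow libraries, and 5 non-pregnant animals, 1 of them apart from the rest, limit every group difference.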
